A study of Mus musculus with 22 samples.

Results

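In mouse liver, 183 loci held a larger share of their mRNA in heavy polysomes at 2 h and at 4 h after injection of tunicamycin (Tm) than in the 0 h group. They were chosen from 9383 loci, out of 39897 in the table, and made up 1.95% of the loci considered. These 9383 had complete group estimates, and their 6 group means averaged 50 scaled fragments or more. For 10 of the 9383, 1 of them among the 183, the estimate was not complete in every single library used. For each time point the polysomal-to-total ratio was computed as the difference of log2(mean + 1), and a locus was listed when its ratio at 2 h and its ratio at 4 h both lay at least 1.5-fold above its ratio at 0 h. The ratios and their changes therefore chose the loci and are described here without a test. All libraries had been scaled to a common level, so each gain is relative to the other loci and not a gain in absolute amount.

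Tm blocks N-linked glycosylation, and the misfolded proteins that accumulate in the endoplasmic reticulum (ER) activate the kinase PERK, which phosphorylates the translation initiation factor eIF2α. This phosphorylation lowers the rate of translation initiation in general, while a few mRNAs are known to be translated better under the same conditions, often through short reading frames upstream of the main one. An mRNA bound by many ribosomes sediments with heavy polysomes, so the polysomal share of an mRNA is used as a measure of how it is being translated.

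Livers came from C57BL/6 males of 5 weeks. Mice given 0.1 mg/kg Tm into the peritoneum at 8 am were culled at 10 am (2 h) or at noon (4 h), and the 0 h mice were culled at 9 am, so time after injection and time of day changed together. The labels list tunicamycin for the 0 h mice as well, while the methods call them controls, and no dose was assigned to them here. Total RNA was sequenced in 3 libraries at each of these times, and RNA from pooled fractions with more than 3 ribosomes in 2 labelled libraries at 0 h, 2 at 2 h and 3 at 4 h. The table holds 3 read groups for polysomal RNA at 0 h and at 2 h, which could not be tied to the 2 labelled libraries, so for these times only the authors' group means were used, with no spread between libraries. In the other groups the table's read groups equal the labelled libraries in number but are numbered differently, so the replicate numbers given here are read group numbers counted from 1. The labels do not say which libraries came from the same liver, and p-values measure the spread between the libraries of a group.

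The 12 libraries used held from 9788578 to 17283500 counted fragments, the deepest being a total RNA library of the 0 h group. Within a group, Pearson's correlation of log2 scaled fragments across loci was from 0.976 to 0.990. The files name loci by number only, with no gene symbol, coordinate or sequence. No gene name, gene list, promoter or liver marker could therefore be given, and the tissue label was not checked against markers. In whole liver, fewer cells of a type and less RNA per cell cannot be told apart.

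At 0 h these loci were poorly represented in polysomes. Their median log2 ratio was -0.72, against -0.04 over all 9383 loci, and the ratio lay below 0 in 180 of the 183 (98.4%) against 52.9% of all loci. The median was 0.08 at 2 h and was -0.02 at 4 h, where the medians of all loci were 0.00 and -0.00. The gained loci thus moved from the low end of the range to about its middle: 152 of 183 lay below the first quartile of all loci at 0 h, 74 had a ratio below 0 at 2 h and 97 at 4 h. Since both gains are taken against the same 0 h means, a low polysomal mean or a high total mean at 0 h raises both at once.

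**Figure D1:**
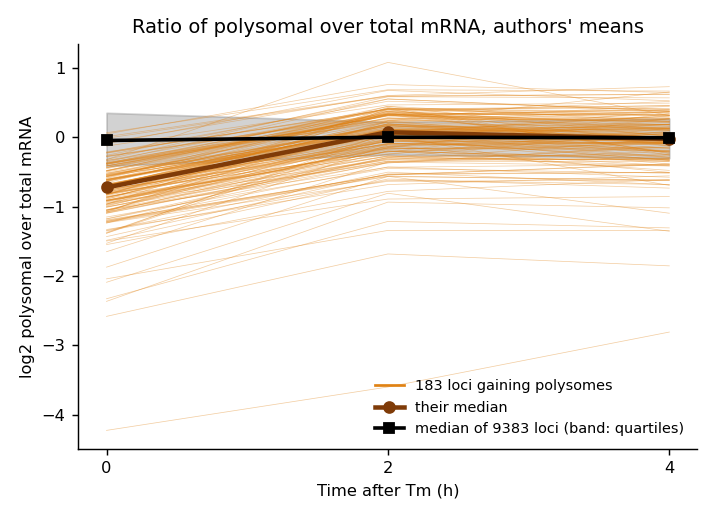
Log2 ratio of polysomal over total mRNA (y axis, from the authors' group means) at 0 h, 2 h and 4 h (x axis) for each of the 183 loci (thin lines), with their median (circles) and the median and quartiles of all 9383 loci (squares and band). The median of the 183 loci lies at -0.72 at 0 h and within the quartile band of all loci at 2 h and 4 h.

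The gain was modest for most loci. Its median was 0.75 on the log2 scale at 2 h (range 0.59 to 1.49) and 0.70 at 4 h (range 0.59 to 1.72), against 0.04 and 0.06 over all loci. The gain reached 2-fold in 23 loci at 2 h, in 16 at 4 h and in 8 at both times. In 117 loci (63.9%) it was smaller at 4 h than at 2 h, with a median difference of -0.05. Of the loci above the threshold at 2 h, 21.2% (183 of 865) were also above it at 4 h, and of those above it at 4 h, 57.2% (183 of 320) were also above it at 2 h. Both counts rest on the same 0 h means.

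Just inside the threshold were XLOC_015470, with gains of 0.65 at 2 h and 0.59 at 4 h, and XLOC_024436, with 0.90 and 0.59. Just outside it were XLOC_031740, with gains of 0.84 and 0.58, and XLOC_036472, with 1.02 and 0.58. A threshold of 1.2-fold gave 1735 loci and a threshold of 2-fold gave 8.

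**Figure D2:**
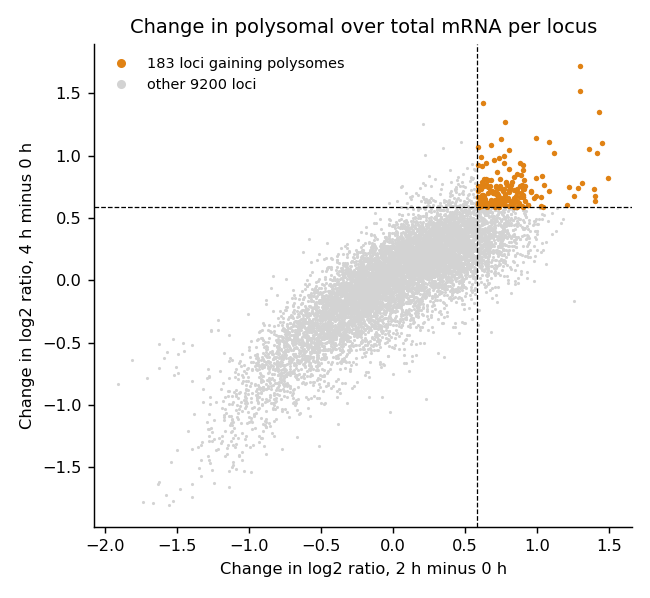
Change in the log2 ratio of polysomal over total mRNA at 2 h (x axis) and at 4 h (y axis), each against 0 h, for all 9383 loci, with the 183 gaining loci in colour and the 1.5-fold threshold as dashed lines. The gaining loci lie at the upper end of a continuous cloud, and 8 of them are past 2-fold at both times.

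Which loci were listed depended on single libraries. Without polysomal 4 h replicate 2 the rule found 115 loci, 105 of them among the 183, and without polysomal 4 h replicate 3 it found 336, with 175 of the 183. Without total 0 h replicate 1 it found 170, with 126 of the 183. The polysomal libraries at 0 h and 2 h could not be left out in turn. In the settings that each left out 1 of the 12 libraries, 38 of the 183 loci (20.8%) were found every time. Of the 36 gaining loci named by rule, 16 met the rule in each of these settings and 20 did not in at least 1 of them. The polysomal and total libraries of the same number at 4 h moved together around their group means, so the ratio at 4 h could be taken in 3 pairs of libraries. Set against the mean ratio at 0 h, 129 of the 183 loci passed 1.5-fold in pair 1 (4.08% of all loci did), 166 in pair 2 (9.12%) and 82 in pair 3 (5.81%). These pairs make up the 4 h means that chose the loci, so the counts are a description.

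The median gain of the 183 loci at 4 h was 0.67 in pair 1, 0.86 in pair 2 and 0.55 in pair 3, so pair 2 was the highest and pair 3 the lowest. All 3 pairs passed the threshold for 50 loci (27.3%, against 0.842% of all loci), 2 pairs for 94 (51.4%, against 2.66%) and 1 pair for 39 (21.3%, against 11.2%). The ratio was above its 0 h value in all 3 pairs for 180 loci (98.4%, against 34.1%). As the pairs make up the selecting mean, nothing is read from these shares. The loci also varied more between pairs than others did, with a median SD of the 3 log2 ratios of 0.24 against 0.18 over all loci. For log2 polysomal RNA at 4 h the median SD was 0.28, against 0.18 over all loci. It was 0.27 in the 682 loci past the threshold at 2 h alone and 0.19 in the 137 past it at 4 h alone. A polysomal spread like that of the 183 loci was thus found in the 682 loci, while that of the 137 lay near the value over all loci.

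**Figure D3:**
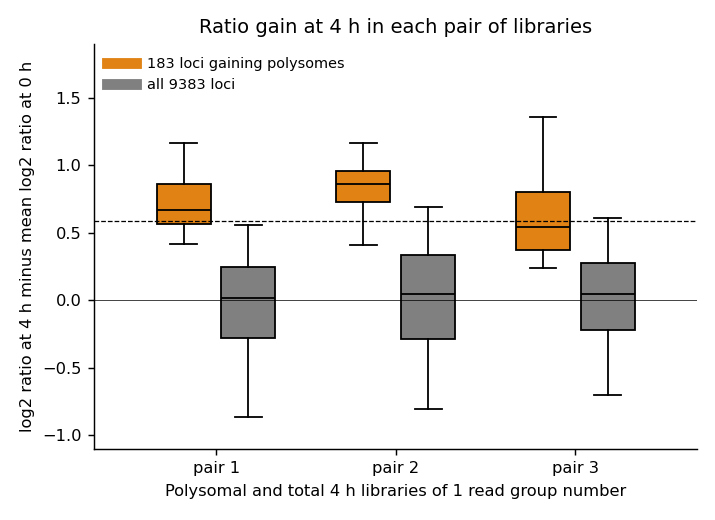
Log2 ratio of polysomal over total mRNA at 4 h minus the mean log2 ratio at 0 h (y axis) in each of 3 pairs of 4 h libraries (x axis), for the 183 gaining loci and for all 9383 loci. Boxes give quartiles and median, whiskers reach the outermost loci between the 5th and 95th percentiles, and the dashed line the 1.5-fold threshold, which the median of the gaining loci exceeds in pairs 1 and 2 and not in pair 3.

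A ratio can rise because polysomal mRNA goes up, because total mRNA goes down, or both. At 2 h the polysomal mean was higher by 1.2-fold or more in 159 of the 183 loci (86.9%, against 33.9% of all loci), within 1.2-fold in 23 and lower in 1. The total mean was within 1.2-fold in 114, lower in 53 (29.0%, against 7.64% of all loci) and higher in 16. At 4 h the polysomal mean was higher in 136 (74.3%, against 35.7% of all loci), within 1.2-fold in 36 and lower in 11. The total mean at 4 h was within 1.2-fold in 77, lower in 77 (42.1%, against 22.5% of all loci) and higher in 29 (15.8%, against 28.3%). A high polysomal mean or a low total mean at a later time raises the ratio, so these shares follow in part from the choice of loci.

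The median change of polysomal mRNA was 0.69 on the log2 scale at 2 h and 0.52 at 4 h, and that of total mRNA was -0.09 and -0.19, with medians over all loci between 0.02 and 0.06. In 57 loci polysomal mRNA was higher at both times with total mRNA within 1.2-fold at both. In 7 loci polysomal mRNA was higher and total mRNA lower at both times, in 6 total mRNA was lower with polysomal mRNA within 1.2-fold, and in 8 both were higher. No locus had both lower at both times, and the remaining 105 belonged to none of these classes. In 28 loci the polysomal mean at 4 h lay below its own 0 h mean.

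**Figure D4:**
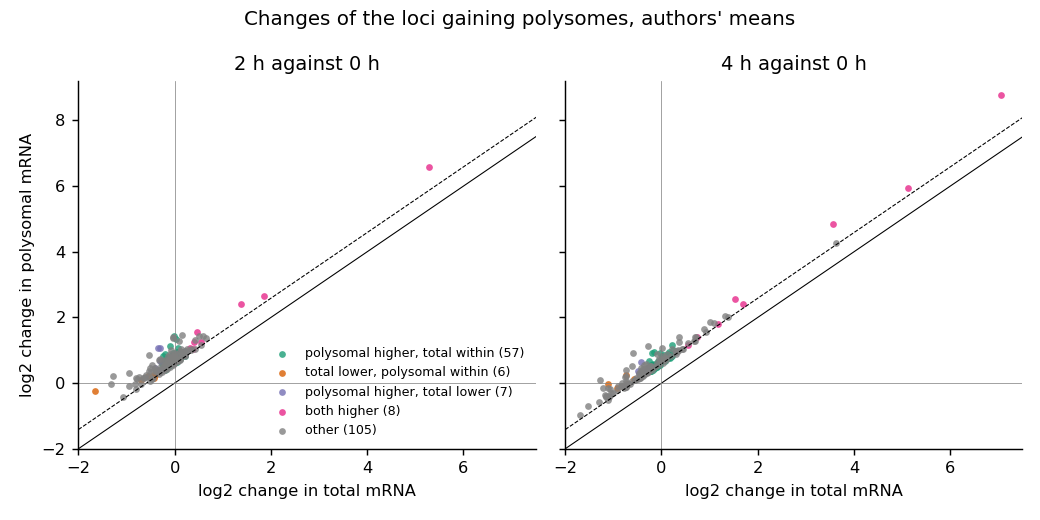
Log2 change of the authors' mean polysomal mRNA (y axis) against that of total mRNA (x axis) at 2 h (left) and 4 h (right) for the 183 gaining loci, coloured by how both moved over the 2 times. The solid line marks equal change and the dashed line a 1.5-fold gain, above which every point lies, with XLOC_032013 farthest to the upper right in both panels.

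The authors' means for polysomal mRNA come with an SD that Cuffdiff models from the spread between read groups and from the uncertainty in assigning fragments to a locus. In total RNA at 0 h it exceeded the SD of the 3 libraries in 85.1% of all loci. Polysomal mRNA at 2 h lay above that at 0 h by more than both modelled SDs in 109 of the 183 loci (59.6%, against 15.8% of all loci), and at 4 h in 75 (41.0%, against 19.9%). These polysomal means are part of the rule that chose the loci, so an excess over all loci follows in part from the choice and nothing is read from it. For 74 loci at 2 h the intervals overlapped. Loci whose modelled SD at 0 h was at least as large as the polysomal mean itself were 6 of the 183 (3.28%), against 0.746% of all loci, and 3 of the 10 loci with the largest gains were among them. XLOC_015470, just inside the threshold, was another (mean 664, modelled SD 2537).

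These 10 loci, ordered by the smaller of their gains at 2 h and 4 h, were XLOC_017770, XLOC_032013, XLOC_008718, XLOC_021508, XLOC_022655, XLOC_038419, XLOC_032590, XLOC_026796, XLOC_009494 and XLOC_033159. The first of them, XLOC_017770, was the 1 locus of the 183 without a complete estimate in every library and entered none of the edgeR tests. Its authors' mean in polysomal RNA was 26.2 at 0 h (modelled SD 92.9) and 71.1 at 2 h (modelled SD 207), so the intervals overlapped. Its total RNA libraries held 118, 175 and 124 scaled fragments at 0 h, 154, 128 and 129 at 2 h, and 49.6, 58.1 and 63.7 at 4 h, and the polysomal libraries at 4 h held 31.6, 21.3 and 30.4. By the means alone, the gain at 2 h was one of polysomal mRNA. The gain at 4 h was one of lower total mRNA, with polysomal mRNA near its 0 h mean.

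In XLOC_021508 the polysomal mean changed more than the total mean at both times. Its total RNA libraries held 344, 392 and 343 scaled fragments at 0 h, 321, 412 and 328 at 2 h, and 315, 304 and 326 at 4 h. The authors' polysomal mean was 137 (modelled SD 51.3) at 0 h and 371 (modelled SD 105) at 2 h, and the polysomal libraries at 4 h held 272, 313 and 192. Total mRNA overlapped between 0 h and 2 h, and at 4 h its 3 libraries lay below every 0 h library. The polysomal means changed by 1.43 at 2 h and 0.91 at 4 h on the log2 scale and the total means by -0.02 and -0.19, with gains of 1.45 at 2 h and 1.10 at 4 h. Polysomal replicate 3 was the lowest library at 4 h and still lay above the 0 h mean.

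XLOC_022655 moved in a similar way at a higher level. Total RNA held 710, 903 and 739 scaled fragments at 0 h, 684, 706 and 656 at 2 h, and 726, 761 and 630 at 4 h. The polysomal mean was 378 at 0 h and 699 at 2 h, and libraries at 4 h held 653, 974 and 585. Its gains were 1.09 and 1.11, but its modelled SD at 0 h (522) was larger than the mean, as it was for XLOC_008718 (mean 230, modelled SD 340), whose gains were 1.30 and 1.52.

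XLOC_026796 had higher polysomal means at both times. Total RNA held 100.3, 88.3 and 94.3 scaled fragments at 0 h, 97.8, 98.2 and 80.3 at 2 h, and 128, 120.3 and 117 at 4 h. The polysomal mean was 32.1 (modelled SD 20.5) at 0 h, 85.4 (modelled SD 36.0) at 2 h and 85.7 (modelled SD 37.0) at 4 h. The intervals at both later times therefore overlapped that at 0 h. Libraries at 4 h held 93.3, 103 and 60.9, all above the 0 h mean. Its gains were 1.42 and 1.02.

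XLOC_009494 varied widely between libraries. Total RNA held 2234, 1641 and 1310 scaled fragments at 0 h, 2238, 1403 and 1209 at 2 h, and 874, 1362 and 869 at 4 h. Polysomal RNA had a mean of 812 at 0 h and 1516 at 2 h, and held 761, 1394 and 1068 at 4 h. The polysomal libraries at 4 h lay on both sides of the 0 h mean, and total libraries at 4 h overlapped those at 0 h. The gain of 1.14 at 4 h came from a total mean that differed by -0.74 on the log2 scale and a polysomal mean that was higher by 0.40.

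XLOC_033159 held 113, 71.5 and 145 scaled fragments in total RNA at 0 h, 137, 173 and 161 at 2 h, and 50.5, 65.4 and 77.4 at 4 h. Its polysomal mean was 40.0 at 0 h and 109 at 2 h, and 41.9, 40.8 and 52.9 were found in the 4 h libraries. Its gains of 0.91 and 0.93 were thus close, the first with more polysomal mRNA and the second with less total mRNA and polysomal mRNA near its 0 h mean.

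XLOC_038419 led the 7 loci with polysomal mRNA higher and total mRNA lower when ordered by the smaller gain, with gains of 1.36 and 1.06. Its total RNA libraries held 75.4, 78.1 and 63.9 scaled fragments at 0 h, 53.7, 64.4 and 57.7 at 2 h, and 54.7, 49.9 and 57.4 at 4 h. The polysomal mean was 27.2 at 0 h and 57.7 at 2 h, and the libraries at 4 h held 57.3, 40.8 and 30.4. At 4 h total RNA was below every 0 h library, and polysomal replicate 3 lay near the 0 h mean.

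XLOC_007865 led, by the smaller gain, the 6 loci in which only total mRNA moved. Total RNA held 87.8, 73.3 and 111 scaled fragments at 0 h, 61.0, 38.2 and 67.9 at 2 h, and 57.3, 39.3 and 46.4 at 4 h, so no later library reached the lowest at 0 h. The polysomal mean was 42.1 at 0 h and 45.2 at 2 h, and libraries at 4 h held 46.3, 34.9 and 32.6, which spans the 0 h mean. Its gains were 0.79 and 0.77.

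XLOC_032013 had the largest change of polysomal mRNA of the 183 loci at both times, and both kinds of mRNA were higher. Its total RNA libraries held 11.5, 2.4 and 26.2 scaled fragments at 0 h, 627, 743 and 318 at 2 h, and 1763, 2546 and 1441 at 4 h. In polysomal RNA the mean was 5.87 at 0 h and 664 at 2 h, and the 3 libraries held 2460, 4137 and 2466 at 4 h. The time points did not overlap in total RNA. Its gains of 1.30 and 1.72 rest on a few fragments at 0 h: the smaller of them was 0.45 without total 0 h replicate 3, which put the locus below the threshold, and 1.77 without total 0 h replicate 2.

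**Figure D5:**
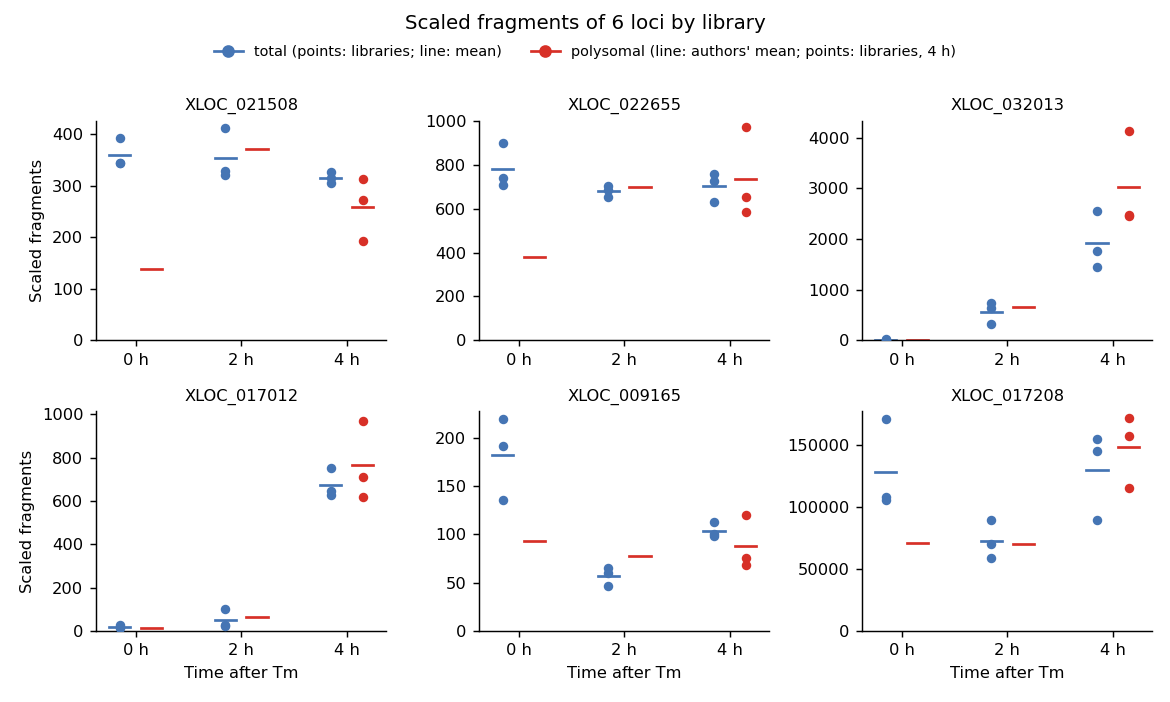
Scaled fragments (y axis, from 0, separate scale per panel) of 6 gaining loci in total RNA and in polysomal RNA at 0 h, 2 h and 4 h (x axis), with points for libraries and short lines for group means. Polysomal RNA at 0 h and 2 h has the authors' mean alone, and in XLOC_021508 and XLOC_022655 it lies below total RNA at 0 h and at about the same level at 2 h.

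The abundance of the loci is described here without a test, since it comes from values the rule used: the mean of the 6 group means is its filter, and a high total mean at 0 h raises both gains. Where that mean reached 1000 scaled fragments 3.92% of loci gained (60 of 1531), against 1.26% of those with 200 to 1000 and 1.94% of those with 50 to 200. Per length, the median level in total RNA at 0 h was 11.8 FPKM, against 9.45 over all loci. A level of at least 100 FPKM was found in 36 of the 183 (19.7%) and in 8.21% of all loci, and 16 of the 200 loci with most fragments in total RNA were gaining loci.

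By FPKM in total RNA at 0 h, the measure used to order the loci here, the most abundant was XLOC_017208, at 2058 ± 614 FPKM in total RNA at 0 h (SD, n = 3). Its total RNA libraries held 107925, 170920 and 105242 scaled fragments at 0 h, 69804, 89350 and 58964 at 2 h, and 154350, 145083 and 89233 at 4 h. Its polysomal RNA averaged 70700.3 at 0 h and 70073 at 2 h, and held 157363, 171456 and 115022 at 4 h. Total mRNA was lowest at 2 h, without overlap with 0 h, while the polysomal mean was about the same at 0 h and 2 h and higher in every library at 4 h. The gain at 2 h of 0.80 was therefore one of lower total mRNA and the gain at 4 h of 1.05 one of higher polysomal mRNA. Its smaller gain was 0.54 without total 0 h replicate 2, below the threshold.

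XLOC_024569, at 1855 ± 39.2 FPKM (SD, n = 3), had tighter libraries. Total RNA held 42866, 44274 and 45881 scaled fragments at 0 h, 34373, 32816 and 35059 at 2 h, and 49845, 51431 and 43325 at 4 h. Polysomal RNA had a mean of 28596 (modelled SD 6162) at 0 h and 36768 (modelled SD 8456) at 2 h, so these intervals overlapped. It held 48179, 64576 and 45057 at 4 h. Its gains were 0.74 and 0.76, with total mRNA below 0 h in every library at 2 h and polysomal mRNA above the 0 h mean throughout. The locus came just below the threshold without polysomal 4 h replicate 2.

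The next 3 loci by FPKM in total RNA at 0 h were XLOC_009815 at 1650 ± 358 FPKM, XLOC_021747 at 1310 ± 70.4 FPKM and XLOC_034543 at 1182 ± 42.8 FPKM (SD, n = 3). In XLOC_021747 total RNA lay between 19276 and 20322 scaled fragments at 0 h and between 16986 and 18678 in the 6 later libraries, all below every 0 h library, and polysomal RNA went from a mean of 18238 at 0 h to 24090 at 2 h and to 22562, 31658 and 21415 at 4 h. In XLOC_034543 total RNA lay between 21832 and 29089 scaled fragments, with the 4 h libraries below every 0 h library, and polysomal RNA went from 17829 to 27552 and then to 25550, 30160 and 20005. In both, polysomal mRNA lay above its 0 h mean at 2 h and in each 4 h library, with gains from 0.59 to 0.76. The modelled SDs of polysomal RNA at 0 h, 2 h and 4 h were 3621, 5353 and 5573 in XLOC_021747, and both later intervals overlapped that at 0 h. They were 3525, 6041 and 5478 in XLOC_034543, where the interval at 4 h overlapped that at 0 h and the interval at 2 h did not. The smaller gain of XLOC_021747 was 0.42 without polysomal 4 h replicate 2, and it was also below the threshold without total 0 h replicate 2 or total 2 h replicate 3. XLOC_009815 is described below with the loci that fell in total mRNA.

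How the total mRNA of these loci changed between the 2 later times was compared with edgeR across all loci. The rule does not set this contrast, but the total means at both times enter it, so the calls are a description and no p-value is given for a locus. A locus was called at 2-fold or more and a Benjamini-Hochberg adjusted p below 0.05 in edgeR's quasi-likelihood test. Of the 182 loci with complete estimates in every library, 20 differed between 4 h and 2 h (11%, against 6.81% of all 12606 loci tested). Of these, 12 were higher at 4 h (3.63% of the loci tested were) and 8 lower (3.17%). Without a minimum change, 37 were higher (20.3%, against 15.4%) and 32 lower (17.6%, against 10.9%). The median change of the 182 loci was -0.06 on the log2 scale, against 0.01 over the loci tested, and 80 of the 182 lay above 0. The libraries at 4 h lay above those at 2 h without overlap for 42 loci (23.1%, as in 23.1% of the loci tested) and below them for 40 (22.0%, against 18.6%). Of the called loci, 3 of the 12 higher and 2 of the 8 lower had a mean under 50 once the time at which total mRNA was high was left out, and so entered the list through that time. Upper-quartile normalization moved the median over the loci tested to -0.10, and the split was then 10 higher and 10 lower. The share of all loci called under it is not given, so nothing is read from that split.

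Among the loci that rose, XLOC_025957 held 341, 407 and 275 scaled fragments in total RNA at 2 h and 908, 1016 and 899.7 at 4 h. The rise was 1.48 ± 0.14 on the log2 scale (edgeR estimate ± an SE derived from its F statistic, as for the loci below), and the times did not overlap. In polysomal RNA the mean was 156 at 0 h and 254 at 2 h, and the 3 libraries held 624, 685 and 586 at 4 h. Polysomal mRNA was higher in proportion than total mRNA at both times, with gains of 0.79 and 0.64, and its level stayed below that of total mRNA.

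XLOC_005590, an abundant locus, held 5119, 5031 and 5757 scaled fragments in total RNA at 2 h and 11897, 12264 and 10119 at 4 h. The rise was 1.12 ± 0.11. Its polysomal RNA had a mean of 3434 at 0 h and 6786 at 2 h, and held 14305, 17585 and 10664 at 4 h. The polysomal level was thus above total mRNA at both later times and below it at 0 h, with gains of 0.76 and 0.72.

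XLOC_017012 was near absent at 0 h, with 11.5, 15.6 and 28.3 scaled fragments, and held 98.9, 28.4 and 22.6 at 2 h and 629, 752 and 645 at 4 h. It rose by 3.75 ± 0.38 from 2 h to 4 h, and by 3.40 to 4.74 when 1 total library was left out. Its 6 group means averaged 264, and without the 4 h means 36.2, so it passed the minimum of 50 only through the time at which it was high. At 2 h replicate 1 was far above the 0 h libraries, replicate 2 was level with the highest of them and replicate 3 lay within their range. Its polysomal mean was 11.3 at 0 h and 65.2 at 2 h, and libraries at 4 h held 710, 968 and 617. Its smaller gain was 0.42 without total 0 h replicate 3, below the threshold.

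Other loci had a higher polysomal mean at 2 h and lost total mRNA by 4 h. XLOC_009815 held 61756, 48851 and 62698 scaled fragments in total RNA at 2 h and 27526, 22638 and 22806 at 4 h. It fell by 1.24 ± 0.15 on the log2 scale. Its polysomal RNA went from a mean of 29898 at 0 h to 54201 at 2 h, and held 26643, 23691 and 18202 at 4 h, all below the 0 h mean. Its gain stayed at 0.70 at both times, first with more polysomal mRNA and then with less total mRNA.

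XLOC_014505 held 1820, 1433 and 1521 scaled fragments in total RNA at 2 h and 559, 416 and 646 at 4 h. It fell by 1.55 ± 0.19. Its polysomal RNA averaged 426 at 0 h and 1050.2 at 2 h, and held 387, 282 and 307 at 4 h, again below the 0 h mean.

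XLOC_035651 held 101, 103 and 81.4 scaled fragments in total RNA at 2 h and 40.2, 21.3 and 20.9 at 4 h. It fell by 1.78 ± 0.25, and its mean was 48.9 without the 2 h means, so it passed the minimum through 2 h. Polysomal RNA had a mean of 51.3 at 0 h and 82.3 at 2 h, and held 25.7, 28.1 and 23.9 at 4 h.

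Against 0 h, total mRNA is the denominator of the ratio, so its calls are given as a description from which nothing is read, and without p-values for single loci. At 2 h 4 of the 182 loci were called (0.397% of the loci tested were), 2 higher (0.317%) and 2 lower (0.0793%). XLOC_032013 rose by 5.58 ± 0.51 on the log2 scale, and by 4.901 to 6.515 when 1 total library was left out. XLOC_006905, with 10.5, 10.8 and 7.34 scaled fragments at 0 h and 55.8, 29.4 and 27.1 at 2 h, rose by 1.93 ± 0.36. Its group means averaged 21.3 without those at 4 h, so it passed the minimum of 50 only through 4 h. It was a call that was lost without any 1 of the total 0 h replicates, without total 2 h replicate 1, without total 4 h replicate 1 and in a fit of only the libraries compared.

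XLOC_009165 held 192, 136 and 219 scaled fragments in total RNA at 0 h, 59.97, 65.4 and 46.4 at 2 h, and 113, 98.2 and 100.2 at 4 h. It fell by 1.67 ± 0.20 at 2 h. Its polysomal mean was 93.0 at 0 h and 77.8 at 2 h, so its gain of 1.40 at 2 h came with less total mRNA and a polysomal mean slightly below that at 0 h. XLOC_022229 held 861, 942 and 1132 at 0 h and 469, 407 and 523 at 2 h, and fell by 1.08 ± 0.15, which came to 0.96 without total 0 h replicate 3 and 0.99 without total 2 h replicate 2, under the 2-fold of a call. Its polysomal mean also went down, from 836 to 619, and less than total mRNA did.

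At 4 h 26 of the 182 loci were called against 0 h in total mRNA (8.55% of the loci tested were), 11 higher (5.08%) and 15 lower (3.47%). Without a minimum fold change 77 were called (42.3%, against 30.5% of the loci tested), 25 higher (13.7%, against 17.8%) and 52 lower (28.6%, against 12.7%). The median change was -0.19, against -0.02 over the loci tested. Upper-quartile normalization moved the latter median to -0.15, and gave 9 higher and 18 lower. The share of all loci called under it is not given, so nothing is read from this split. Of the called loci, 3 of the 11 higher and 1 of the 15 lower passed the minimum mean only through the time at which total mRNA was high. Among the higher loci, XLOC_032013 differed by 7.36 ± 0.51, XLOC_017012, 1 of these 3, by 5.23 ± 0.43 and XLOC_005590 by 1.32 ± 0.11. The difference of XLOC_032013 was 6.68 to 8.29 when 1 total library was left out.

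Among the lower loci, XLOC_024456 held 393, 423 and 372 scaled fragments in total RNA at 0 h and 193, 198 and 183 at 4 h. It fell by 1.05 ± 0.09. Its polysomal mean was 244 at 0 h and 372 at 2 h, and libraries at 4 h held 195, 226 and 170. XLOC_035618 held 152, 165 and 152 at 0 h and 75.3, 71.2 and 59.2 at 4 h, and fell by 1.19 ± 0.13. In both loci polysomal mRNA at 4 h was below the 0 h mean in every library, and total mRNA was lower still in proportion. XLOC_009815 fell by 1.09 ± 0.15 against 0 h, and by 0.99 without total 0 h replicate 2, which ended its call.

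Polysomal mRNA was compared with total mRNA at 4 h, where both have 3 libraries. This level is part of the ratio that chose the loci, so the calls are again a description. In 6 of the 182 loci the levels differed by 2-fold or more at an adjusted p under 0.05 (4.52% of the 12575 loci tested did), and polysomal mRNA was lower in all 6 (3.18%) and higher in 0 (1.34%). Without a minimum fold change, 9 were higher (4.95%, against 11.6% of the loci tested) and 20 lower (11%, against 14.7%).

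XLOC_032590 held 438, 370 and 380 scaled fragments in total RNA at 4 h and 172, 164 and 143 in polysomal RNA. The difference was -1.31 ± 0.13 on the log2 scale (edgeR estimate ± SE). Its polysomal mean was 26.3 at 0 h and 80.1 at 2 h, so polysomal mRNA was higher at both times and stayed below total mRNA. XLOC_009757 (-1.87 ± 0.19) and XLOC_009833 (-1.102 ± 0.15, and -0.97 without polysomal 4 h replicate 3, under the 2-fold of a call) had the same pattern, with polysomal means of 36.8 and 80.2 at 0 h and 71.9 and 205 at 2 h. The lowest ratio at every time was that of XLOC_000336, at -4.23, -3.60 and -2.81, whose polysomal mean of 5.67 at 0 h had a modelled SD of 36.9.

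The length of the loci was not used by the rule. It was taken as the fragments of a locus over its FPKM, relative to the median locus, which gives the effective length that the authors' software assumed. The median relative length of the 183 loci was 1.05 (range 0.13 to 5.85), against 1.01 over all loci. With all loci split by length into 5 bins of equal size, 0.906% of the shortest bin gained (17 of 1877), and from 2.08% to 2.34% of the other bins. Short loci were thus less frequent among the 183, while the 4 bins of longer loci lay close together.

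The 3 longest loci were XLOC_013914 at 5.85 times the median, XLOC_014116 at 5.55 and XLOC_008405 at 3.73, and the authors' mean of total RNA at 4 h differed from that at 0 h by -1.11, -1.09 and -0.66 on the log2 scale. The 3 shortest were XLOC_000336 at 0.13, XLOC_033803 at 0.19 and XLOC_001502 at 0.23. XLOC_033803 held 330.4, 374 and 349 scaled fragments in total RNA at 0 h, and its polysomal mean went from 135 at 0 h to 284 at 2 h. XLOC_001502 held 2098, 2126 and 2278 in total RNA at 0 h. Its polysomal mean went from 1349.7 (modelled SD 553) at 0 h to 2134 (modelled SD 966) at 2 h, so the intervals overlapped. Removing the trend of the gain with length in 50 bins gave 262 loci, of which 108 were among the 183.

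The effective length of a locus can differ between libraries. The rule did not set this difference, but its fragments at 4 h and 0 h enter the rule, and whether it moves with the ratio was not tested. Between polysomal and total RNA at 4 h it differed in 1 of 181 loci tested (limma with Benjamini-Hochberg adjustment at 0.05, 0.448% of the 9372 loci tested), in XLOC_012996, chosen after its value was seen. Its log2 difference was -0.44 ± 0.05 (limma, adjusted p = 0.0435), a call that was lost with the pairs of libraries as a replicate block, and also without total 4 h replicate 1 or 2 or any polysomal 4 h replicate. At an unadjusted p under 0.05 the counts were 35 of 181 (19.3%, against 19.2% of the loci tested). Between total RNA at 4 h and 0 h limma called 0 of 179 loci (0.0214% of the 9364 loci tested), and 4 at an unadjusted p under 0.05 (2.23%, against 2.79%).

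A further 682 loci had a gain past 1.5-fold at 2 h that was below the threshold at 4 h. Their median gain was 0.70 at 2 h and 0.35 at 4 h, and 655 of them (96.0%) still had a ratio above that at 0 h. Their median ratio at 0 h was -0.65 and their median relative length 1.28, against -0.72 and 1.05 for the 183 loci. Total mRNA at 4 h was lower by 1.2-fold or more in 19.9% of them, against 42.1% of the 183 loci, a measure that enters the rule. Another 137 loci passed the threshold at 4 h and not at 2 h, with a median gain of 0.42 at 2 h and a median total change at 4 h of -0.28.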

How the data were processed

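Total and heavy polysomal RNA of mouse liver was sequenced as stranded mRNA libraries. The authors aligned reads with TopHat2 2.0.13 to a GRCm38 transcriptome and quantified loci with Cuffdiff of Cufflinks 2.2.1, with bias and multi-read correction. The deposited tables hold raw fragment counts per library, scaled fragments (a signal: counts times 1 factor per library), FPKM values, group means of scaled fragments and a modelled variance, which the authors' software gives as a score of uncertainty. Of 81 read groups 69 were not used here, and of 27 group means 21. Libraries at 10 h number their loci separately and were not analysed here.

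The gain was computed from the deposited group means with a pseudocount of 1. Counts were tested with the quasi-likelihood test of edgeR 4.0.16 (TMM scaling, Benjamini-Hochberg adjustment, a locus being called at an adjusted p under 0.05 and at least 2-fold), with DESeq2 1.42.0 as an alternative. The SE given with an edgeR estimate was derived here, as the absolute log2 change over the square root of the F statistic. Implied lengths (at least 10 fragments) were tested with limma 3.58.1, in R 4.3.3. Scripts were tested on simulated data. The members, lists and tests were chosen with earlier results of these data known. Loci were named by rule: the 10 largest smaller gains, the 5 most abundant, those next to the threshold, the leading locus of each class of change, up to 3 called loci per direction, and the 3 longest and 3 shortest. At 4 h, polysomal and total read groups of the same number deviated together from their group means (correlation between 0.465 and 0.490, other numbers between -0.328 and -0.118). The read group numbers were therefore taken to pair them, which comes from the data and not from the labels. Alternatives were other thresholds, minimum means, pseudocounts, scalings and filters, a replicate block on read group numbers, and leaving out each library.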

Additional observations from a re-analysis of the deposited data

Results flagged for a closer look

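For 10 of the named loci total mRNA differed between 4 h and 2 h past the threshold of edgeR's test. This is the contrast already given above, in which 11% of the 182 gaining loci tested and 6.81% of all loci tested were called. Of the 10 loci, 6 were named because they were called in it. Higher at 4 h than at 2 h were XLOC_025957 (log2 difference 1.475), XLOC_005590 (1.117), XLOC_017012 (3.745), XLOC_006905 (1.726), XLOC_032013 (1.777) and XLOC_032590 (1.089). Lower at 4 h were XLOC_009815 (-1.239), XLOC_014505 (-1.55), XLOC_035651 (-1.776) and XLOC_033159 (-1.273). In each of the 10 the 3 libraries at 4 h did not overlap the 3 at 2 h. Over all loci tested, 23.1% lay above and 18.6% below without overlap. The 10 loci had been called on these same libraries, so nothing is read from this. The total means at both times enter the rule that chose the loci, so these values are a description and no p-value is given. XLOC_006905, XLOC_017012 and XLOC_035651 also passed the minimum mean only through the time at which they were high. Groups of 3 libraries were too small for a formal test of outlying libraries. How the counts moved when each library was left out is given below.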

How the results depend on the processing

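The number of gaining loci moved by over 1.5 times in 9 of 22 alternatives. It was 1735 with a threshold of 1.2-fold and 8 with 2-fold, 342 with a minimum mean of 10 and 115 with 200, and 110 when the median change was moved to 0. Leaving out 1 library gave 115 to 336. Leaving out both 4 h libraries of 1 number, an alternative chosen after seeing the data, gave 119 without pair 2 and 296 without pair 3. Of the 183 loci, 26 (14.2%) were found in each left-out setting and with a pseudocount of 8, the median moved, the length trend removed and each pair left out. Without a minimum fold change the called loci in total mRNA were 7 at 2 h (3.85%, against 0.785% of the loci tested) and 77 at 4 h (42.3%, against 30.5%) against 0 h, 69 at 4 h against 2 h (37.9%, against 26.2%), and 29 for polysomal against total mRNA (15.9%, against 26.3%). With the 2-fold minimum and all loci of at least 1 count, 7 were called at 2 h. With the 2-fold minimum these counts were 4, 26, 20 and 6, and leaving out 1 library moved them to 2 to 6 (2 without total 0 h replicate 3), 21 to 27, 19 to 26 and 5 to 6 in the same order. Changed implied length between polysomal and total RNA was called for 0 loci with the replicate block, and for 0 to 4 without 1 library (4 without total 4 h replicate 3). With the replicate block the other counts were 4, 25, 20, 6 and 0, and total libraries of the same number at different times did not all deviate together (correlation from -0.026 to 0.344). Where a count of called loci stands here without the share of all loci, nothing is read from it. The causes were not tested. No smaller gain and no called difference of a named locus changed sign under the alternatives run. Counts were judged only by whether they moved by over 1.5 times, so they could not be found reversed. Polysomal RNA at 0 h and 2 h had no usable library values, which limits every gain.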
